A study of Homo sapiens with 6 samples.

Results

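Peaks of open chromatin in and around 7 genes, TNFSF13B, KCNJ8, ABCC9, CHN2, CPVL, MYO6 and KCNK9, were followed through 6 ATAC-seq libraries of SK-N-AS neuroblastoma cells. The annotation (GENCODE release 44 on hg38) holds 20033 protein-coding genes. The 7 were chosen by the presence of low p-value peaks in libraries of indisulam-resistant cells and the absence of a peak in libraries of naïve cells, at the gene or at the region to which it is nearest. The contrast that chose them is therefore described here and was not tested. For each gene, every peak that overlapped the gene body or lay within 50 kb of either end was taken. The windows form 5 loci, because KCNJ8 lies beside ABCC9 on chromosome 12 and CHN2 starts beside CPVL on chromosome 7. Merged over the 6 lists wherever peaks shared at least 1 base, they held 345 regions of 373067 in all.

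ATAC-seq uses the Tn5 transposase, which cuts and tags DNA where chromatin is open, so that a peak marks a region with more cuts than the background. Naïve cells were grown out of SK-N-AS xenografts of mice that had received vehicle, and R1 and R2 cells out of xenografts that had come back under indisulam and were taken on the second relapse, during the third treatment cycle. Indisulam is a sulfonamide that makes the DCAF15 ubiquitin ligase degrade the splicing factor RBM39. The cultures themselves were not treated. Each cell type is 1 derived population, sampled in 2 libraries of 100000 cells, and the sources used here do not say whether the libraries of a pair are separate cultures. Differences within a pair may therefore be technical. No step to remove mouse host cells beyond the growth of adherent cells is described, and the lists hold human coordinates only.

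Each list gives where a peak lies, its enrichment as a fold, and its p and q as −log10. The percentile rank used below is the place of a peak by p within its own list, where 100 is the lowest p, and a library without a peak at a region was given 0. Depth differed widely. From the background rate that each list implies, the naïve libraries were 2.69 and 1.59 times as deep as the first R2 library, the R1 libraries 9.34 and 6.39 times, and the second R2 library 1.06 times. R2 lists had 67558 to 73484 peaks, naïve lists 115694 to 154926 and R1 lists 292030 to 340558. A comparison of 2 naïve with 4 resistant libraries cannot give a two-sided exact permutation p below 0.0667, and no p-value is given. Neuroblastoma cells are known in adrenergic and mesenchymal forms, and a start of 7 of 8 adrenergic and of 7 of 10 mesenchymal marker genes had a peak in all 6 lists, beside 59.5% of all protein-coding genes. None of 5 markers of other cells had one in all 6, and PTPRC, CD3E and ALB had none in any list.

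TNFSF13B encodes the cytokine BAFF, which binds receptors on B cells and supports their survival. KCNJ8 encodes a pore subunit and ABCC9 a sulfonylurea receptor subunit of ATP-sensitive potassium channels, which open when ATP is low. CHN2 encodes a chimaerin that binds diacylglycerol and speeds GTP hydrolysis by Rac, a small GTPase of the actin cytoskeleton. CPVL encodes a serine carboxypeptidase first found in macrophages, MYO6 the myosin that walks toward the minus end of actin filaments and carries endocytic cargo, and KCNK9 a background potassium channel of the acid-sensitive TASK group. An open promoter or enhancer allows transcription factors to bind but is not a measure of transcription, and no RNA was analysed here.

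The sequences below lie under the summits of the 3 regions near these genes that every resistant list and no naïve list held, and of 2 MYO6 regions, its start and an intronic region of R1 alone. They are given to show the kind of DNA at these peaks. Each is 201 bases of hg38 on the strand of its gene, 5′ to 3′, placed around the summit of the best peak and moved only as far as needed to hold no untranslated exon. Capitals mark matches to 7 short motifs searched on both strands. These were TGANTCA for AP-1 factors, GGAATG for TEAD factors, AGATAA for GATA factors, CANCTG for E-box factors, TGTGGT for RUNX factors, TAATTA for homeobox factors and CCAGNNGGC for part of the CTCF site. CACGTG, another form of the E-box, does not match CANCTG and was not searched.
TNFSF13B, chr13:108270015-108270215, plus strand, in the coding part of exon 1: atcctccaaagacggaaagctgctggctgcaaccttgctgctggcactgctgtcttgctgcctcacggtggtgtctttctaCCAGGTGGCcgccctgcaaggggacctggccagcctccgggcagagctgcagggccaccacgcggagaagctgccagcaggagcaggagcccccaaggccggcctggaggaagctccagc
KCNJ8, chr12:21774809-21775009, minus strand, just before the canonical start: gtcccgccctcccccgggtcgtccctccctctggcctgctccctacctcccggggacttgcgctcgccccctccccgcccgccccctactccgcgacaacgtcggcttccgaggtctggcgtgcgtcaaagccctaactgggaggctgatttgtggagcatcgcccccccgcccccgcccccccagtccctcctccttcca
CHN2, chr7:29289278-29289478, plus strand, in intron 1: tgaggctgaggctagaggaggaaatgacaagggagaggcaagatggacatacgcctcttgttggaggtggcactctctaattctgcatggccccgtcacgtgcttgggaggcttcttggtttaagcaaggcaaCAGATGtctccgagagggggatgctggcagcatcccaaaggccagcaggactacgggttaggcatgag
MYO6, chr6:75749000-75749200, plus strand, just before the first annotated start: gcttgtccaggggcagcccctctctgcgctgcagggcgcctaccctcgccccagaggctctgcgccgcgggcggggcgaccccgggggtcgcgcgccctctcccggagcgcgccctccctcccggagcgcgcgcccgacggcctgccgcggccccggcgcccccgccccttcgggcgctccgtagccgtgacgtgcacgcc
MYO6, chr6:75775327-75775527, plus strand, in intron 1: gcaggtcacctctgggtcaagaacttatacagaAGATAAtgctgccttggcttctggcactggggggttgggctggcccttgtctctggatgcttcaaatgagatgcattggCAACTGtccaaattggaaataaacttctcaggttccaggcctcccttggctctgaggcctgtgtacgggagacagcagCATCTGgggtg

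The windows at the starts of MYO6 and KCNJ8 were the richest of these in G and C, at 82.1% and 72.6%, and the median over 373039 summit windows of the same length was 55.7%. They held 32 and 18 CG pairs, with a ratio of observed to expected CG of 0.967 and 0.787, where the median window had 0.223. No motif of the 7 was found in either. The TNFSF13B window was 66.2% G and C, with a CG ratio of 0.318, and held a CTCF match that overlaps an E-box match, starting 19 and 18 bases before the summit. The CTCF letters occurred in 9.05% of all windows. The CHN2 window, at 55.7% G and C, held an E-box match 33 bases after the summit. It also holds the letters CACGTG across its summit, unmarked because CANCTG does not cover them. The intronic MYO6 window, at 53.2%, held a GATA match, found in 4.86% of all windows, and 2 E-box matches. CANCTG letters occurred in 56.8% of all windows, so that their presence sets no region apart. CACGTG letters were not counted. AP-1 letters, in 6.96% of all windows, TEAD letters, in 11.6%, RUNX letters, in 15.7%, and homeobox letters, in 1.38%, were in none of the 5. A match describes letters only.

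**Figure D1:**
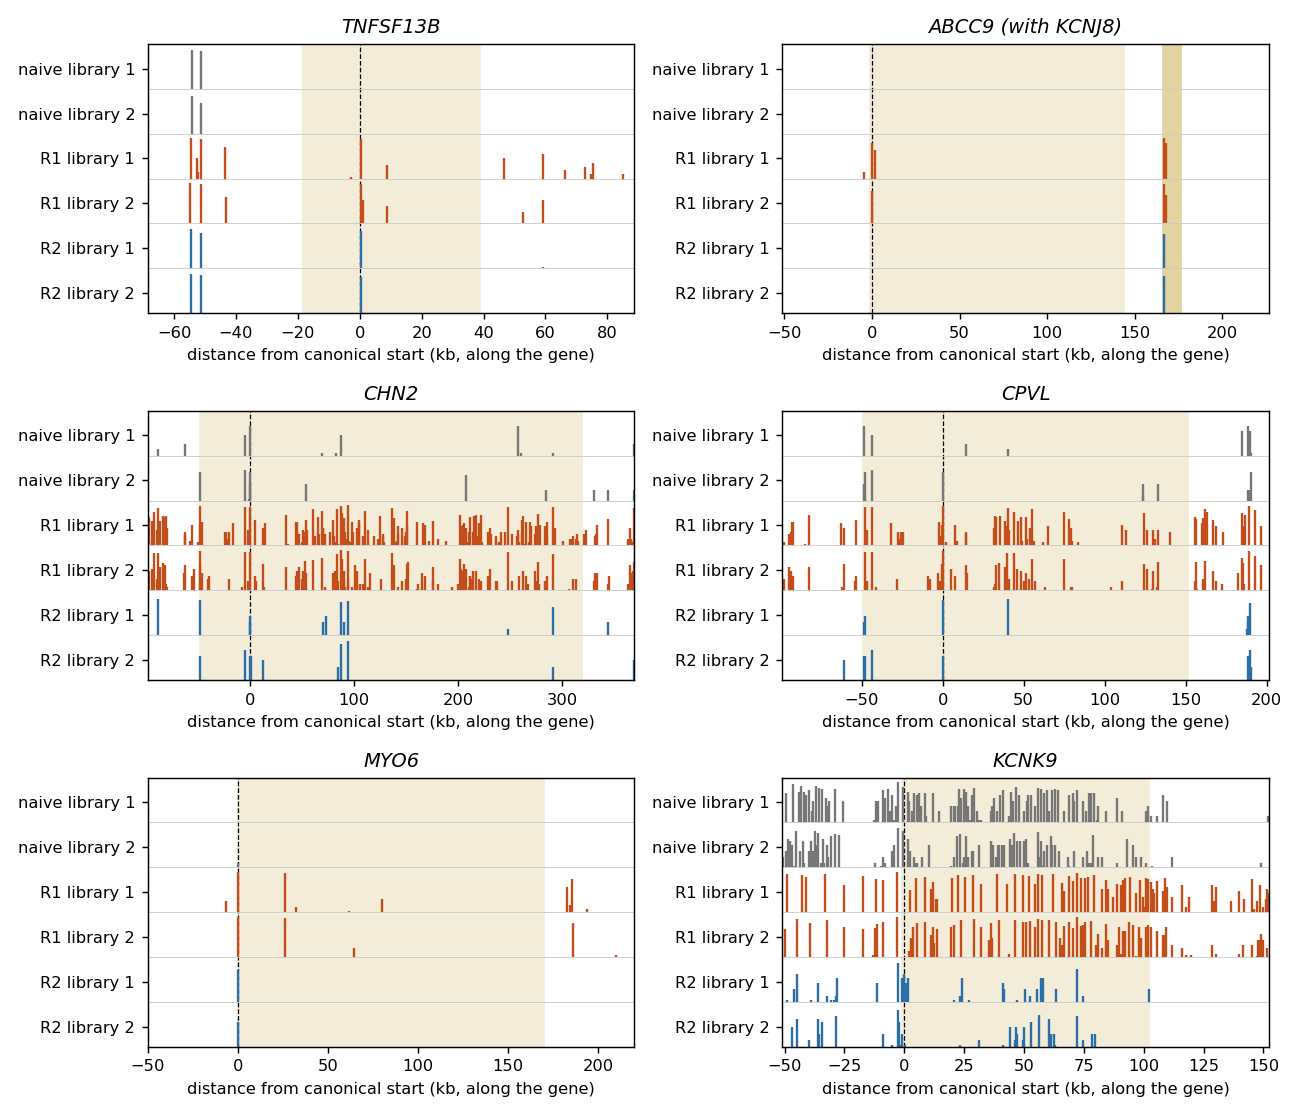
Peaks in the windows of the genes by library. The x axis is the distance from the canonical start in kb along the gene, each vertical bar is a peak at its middle, and its height is the percentile rank from 0 to 100 within its list. Shading marks the gene body, with KCNJ8 darker beside ABCC9. Naïve lists are empty over KCNJ8 and ABCC9, sparse over CHN2, CPVL and MYO6, and dense over KCNK9.

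Of the 345 regions, 3 had a peak in all 4 resistant libraries and in neither naïve library, which is 0.870% of them beside 0.245% of all regions. They lay at TNFSF13B, at KCNJ8 (a region that also falls in the ABCC9 window) and in CHN2, so that 4 of the 7 genes had such a region, beside 5.08% of protein-coding genes. The count restates the choice of the genes. It also moved with the rule. Without the first naïve library or without the second R2 library there were 6 such regions, and without the first R2 library 5. With a reciprocal overlap of 0.5 in place of a shared base none of the 3 passed, and 1 other region at TNFSF13B, which has a narrow peak in both naïve lists, was counted. CPVL, MYO6 and KCNK9 had none. In contrast, 126 of the regions were in both R1 lists alone, which is 36.5% beside 30.0% of all regions. Regions in both R2 lists alone numbered 0, and the share of this kind among all regions was not counted. No region was in both naïve lists and in no resistant list, a kind that made up 0.174% of all regions. All 6 lists shared 18 of the 345 regions, beside 6.47% of all regions. The genes differed widely in how much open chromatin surrounded them. Regions of any list numbered 2 at KCNJ8, 5 at ABCC9, 12 at MYO6 and 16 at TNFSF13B, and 75 at KCNK9, 92 at CPVL and 190 at CHN2. All regions of the KCNJ8 and ABCC9 windows lacked a naïve peak, as did 11 at MYO6, 14 at TNFSF13B, 83 at CPVL and 173 at CHN2, but 32 at KCNK9. Regions without a naïve peak were also common over the genome, where 30.0% of all regions were in both R1 lists alone and 27.1% in the first R1 list alone. The first R1 list, the deepest, was the only list with a peak at 109 of the 345, beside 27.1% of all regions. Across the series, 42 regions without a naïve peak were among the top 20000 peaks of every resistant list. The first 3 places by mean rank were those at TNFSF13B, KCNJ8 and CHN2, with mean ranks of 4930, 5095 and 5518. The fourth, just outside the choice, was a region of mean rank 6314 at BMP7, a bone morphogenetic protein gene, in which the middle lay 304 bp before a start. Places 5 and 12 to 15, among others of the 42, were on chromosome 13, as is TNFSF13B.

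**Figure D2:**
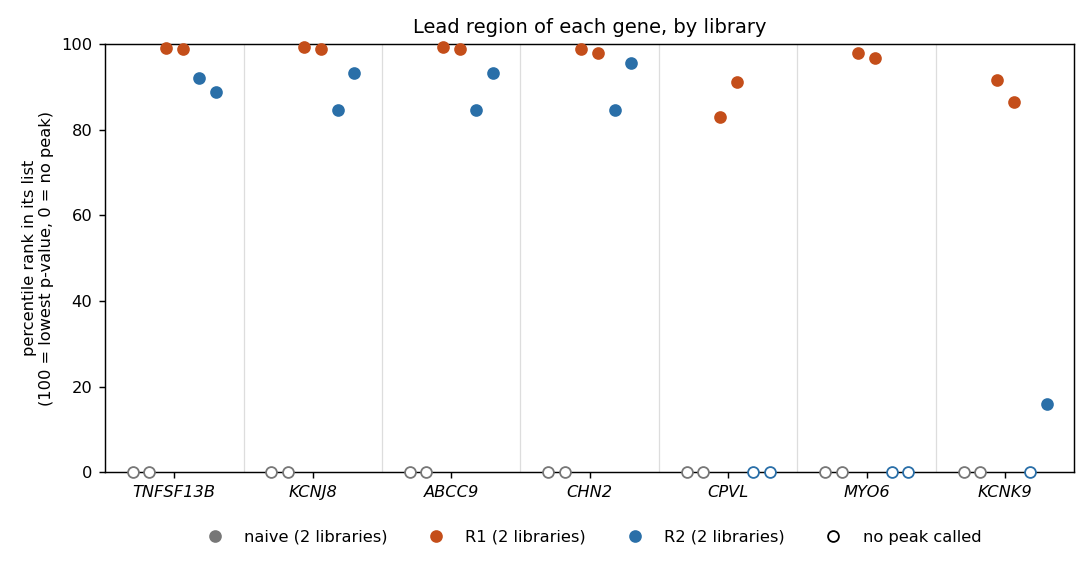
Percentile rank by library at the lead region of each gene, the region without a naïve peak that has the highest mean over the 4 resistant libraries. The y axis runs from 0 (no peak, open circle) to 100 (lowest p of the list), each point is 1 library, and KCNJ8 and ABCC9 share a region. At TNFSF13B, KCNJ8 and CHN2 all 4 resistant libraries sit at 84.7 or above, at CPVL and MYO6 only the R1 libraries have a peak, and at KCNK9 the second R2 library is at 15.9.

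TNFSF13B lies on the plus strand at chr13:108251240-108308484, with a canonical start at 108269718 and 6 exons. Its lead region, chr13:108269708-108270776, covers that start and exon 1. The naïve libraries had no peak there. The R1 libraries had peaks at percentile ranks of 99.0 and 98.8, which are places 3397 and 3575 of their lists. The R2 libraries had peaks at 92.0 and 88.9, places 5083 and 7665. All 4 resistant libraries thus placed this start among their best peaks, with a mean of 94.7 ± 5.04 (SD, n = 4). The 4 summits fell within 64 bp of each other, in the coding part of exon 1 of 6, and the best was 397 bp after the canonical start. The summits held 207 and 135 tags in the R1 libraries and 21 and 18 in the R2 libraries. The peak was 1024 bp wide in the first R1 library, 443 bp in the second, where the region held 2 peaks, and 415 and 417 bp in the R2 libraries. Widths thus fell with the depth of the library.

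Around TNFSF13B the naïve lists were not empty. Each had 2 peaks in the window, where the R1 lists had 15 and 8 and the R2 lists 4 and 3. Both naïve peaks lay over 50 kb before the canonical start, on the side of LIG4, a DNA ligase gene. The best region found in all 6 lists was there, at chr13:108214167-108215855, with percentile ranks of 95.3 and 94.0 for the naïve libraries, of 99.9 for both R1 libraries, and of 97.6 and 97.7 for R2. The resistant libraries were all above the naïve ones at this neighbouring region too. How many of the regions found in all 6 lists show such an order was not counted. Within 5 Mb, the window left out, 95.4% of 87 regions found in all 6 lists were also higher in the resistant mean. Over the genome the share was 41.0%. From the nearest naïve peak on either side, a stretch of 277 kb around the TNFSF13B start was free of naïve peaks, with 28 and 17 peaks in R1 and 2 in each R2 library. TNFSF13B is the only whole protein-coding gene inside it. The other regions of the window without a naïve peak were weaker and mostly seen in R1. The best of them, chr13:108226114-108226607 in an intron of ABHD13, had percentile ranks of 79.2 and 65.4 for R1 and no R2 peak. A region beyond the end of the gene, chr13:108328610-108329163, had 61.3 and 57.9, and 4.24 in the first R2 library.

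KCNJ8 lies on the minus strand at chr12:21764955-21775600, with 3 exons and a canonical start at 21774706. Neither naïve library had a peak in its window of 111 kb. The R1 libraries each had 2 peaks there and the R2 libraries 1. The lead region, chr12:21774339-21775135, spans the canonical start, and the best summit was 212 bp before it. Percentile ranks were 99.3 and 98.8 in R1, places 2372 and 3575. In R2 they were 84.7 and 93.1, places 9649 and 4785. Both R2 libraries were below both R1 libraries and differed more from each other, and the mean over the resistant libraries was 94.0 ± 6.80 (SD, n = 4). The 4 summits lay within 39 bp, from 231 and 135 tags in the R1 libraries and 16 and 22 in the R2 libraries, and the peaks were 797, 752, 356 and 350 bp wide. A second region over the coding sequence, chr12:21773240-21773685, was in R1 alone, at 86.9 and 71.1.

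ABCC9 lies 21.8 kb further along the chromosome, at chr12:21797389-21942543, also on the minus strand, with its canonical start at 21941426. Its window had no naïve peak, 5 and 3 peaks in R1, and 1 in each R2 library, which was the peak at the KCNJ8 start, 22.3 kb from the ABCC9 gene body. The peak at its own start, chr12:21941135-21941465, was in R1 alone, at percentile ranks of 88.4 and 80.4, and lay in the untranslated part of exon 1 of 40. The start of the pore subunit was therefore called in both resistant cell types and the start of the sulfonylurea receptor in R1 only. Both subunit genes sat within a stretch of 388 kb without a naïve peak, which holds no other whole protein-coding gene, 12 and 8 R1 peaks and 1 peak in each R2 list. Such emptiness is not rare: 9.47% of protein-coding genes had no naïve peak within 50 kb.

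CHN2 lies on the plus strand at chr7:29146547-29514328 and has 27 annotated starts, of which the canonical one is at 29194775. Its lead region, chr7:29288733-29289954, is far inside the canonical transcript, in intron 1 of 13 exons, 94603 bp after the canonical start. It is also 497 bp after the start of a shorter transcript. Neither naïve library had a peak. Percentile ranks were 98.9 and 98.0 in R1, places 3605 and 5744, and 84.7 and 95.6 in R2, places 9649 and 3073. By place the region stood highest in the second R2 list, and by percentile in the first R1 list, and the mean over the resistant libraries was 94.3 ± 6.58 (SD, n = 4). The 4 summits lay within 49 bp, from 203 and 113 tags in the R1 libraries and 16 and 26 in the R2 libraries. Peak widths were 1148 and 505 bp, and 326 and 339 bp.

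At the canonical CHN2 start the picture differed. The region chr7:29193740-29195567 had a peak in all 6 lists, with naïve percentile ranks of 72.5 and 71.3, R1 ranks of 96.1 and 95.7, and R2 ranks of 47.8 and 60.5. By percentile, R1 was above and R2 below both naïve libraries. The relative level, the tags of a peak per background tag divided by its median over 24147 regions found in all 6 lists, gave another order for R2. The naïve libraries stood at 0.667 and 0.778, R1 at 1.02 and 1.06, and R2 at 0.769 and 0.786, so that R2 was not below the naïve cells on that scale. The gene thus had a start that was called in naïve cells and, inside intron 1, a region that was not. Further R1 regions without a naïve peak ranked high in the gene. The next best, chr7:29442155-29442573, had percentile ranks of 93.9 and 93.6 in the R1 libraries, 15.6 in the first R2 library and no peak in the second. The next after it, chr7:29331040-29331859, had 92.5 and 91.1 for R1 and no R2 peak. Around the lead region, 120 kb of the gene held no naïve peak, with 52 and 40 peaks in the R1 lists and 2 and 1 in the R2 lists.

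CPVL lies on the minus strand at chr7:28995235-29195451, and its canonical start, at 29146537, is 10 bp from the first annotated base of CHN2, which is read in the other direction. Its lead region, chr7:29102560-29102814 in intron 3 of 13 exons, was a modest peak in R1 alone, at percentile ranks of 83.0 and 91.1, from 49 and 50 tags. It lay in a stretch of 82.8 kb without a naïve or R2 peak, in which the R1 lists had 20 and 16 peaks. The shared start of CPVL and CHN2, chr7:29145913-29146718, stood higher. There the first naïve library had no peak and the second had 71.3. The R1 libraries had 97.9 and 98.1, from 156 and 115 tags, and the R2 libraries 86.6 and 60.5, from 17 and 11. By percentile the second R2 library was below the second naïve library, but their relative levels were close, at 0.786 and 0.778. The R1 libraries, at 1.46 and 1.60, and the first R2 library, at 1.31, were higher. Peaks in the windows of both genes were many in R1 alone: CHN2 had 11 in each naïve list, 12 and 10 in the R2 lists, and 174 and 131 in the R1 lists. CPVL had 9 and 11, 9 and 8, and 76 and 67 in the same order. Naïve and R2 lists, of unlike depth, thus held similar numbers at this locus.

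MYO6 lies on the plus strand at chr6:75749201-75919537, with a canonical start at 75749239 and 35 exons. Its window had 1 peak in each naïve list, 11 and 5 in R1 and 1 in each R2 list. The naïve peak is the start itself. The region chr6:75748591-75749664 was found in all 6 lists, and it was near the bottom of the naïve ones. Naïve percentile ranks were 1.46 and 11.7, from 10 and 9 tags where the weakest peaks of those lists had 9 and 7. R1 ranks were 98.6 and 98.4, from 185 and 123 tags, and R2 ranks 78.9 and 60.5, from 14 and 11 tags. The resistant libraries were all above the naïve ones, by 77.5 percentile points in the mean (84.1 ± 18.2, n = 4, against 6.60 ± 7.26, n = 2, SD). This is a region that the naïve lists do hold. How many of the regions found in all 6 lists part the groups in this way was not counted. Within 5 Mb, the window left out, 94.1% of 17 regions found in all 6 lists were also higher in the resistant mean. Over the genome the share was 41.0%.

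The lead region of MYO6, chr6:75775095-75775667, lies in intron 1, with its best summit 26188 bp after the canonical start. It had no peak in naïve or R2 libraries and percentile ranks of 97.8 and 96.8 in R1, places 7507 and 9174, from 150 and 90 tags. Their summits lay within 42 bp. Among 242 regions in the top 20000 of both R1 lists and in no other list it was the third by mean rank, at 8340.5. The second, at 7603, was nearest to SCCPDH, which was not chosen. Beyond the MYO6 start, 3328 kb passed without a naïve peak, a stretch in which the R1 lists had 48 and 29 peaks and the R2 lists 1 and 2. Besides the rest of MYO6 it holds 4 whole protein-coding genes, IMPG1, HTR1B, MEI4 and IRAK1BP1.

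KCNK9 did not bear out the description by which it was chosen. The gene lies on the minus strand at chr8:139600838-139704109, and its window was full of peaks in naïve cells. There were 105 and 95, beside 79 and 88 for R1 and 35 and 33 for R2. The naïve peaks covered 73.4 and 45.4 kb. The R1 peaks covered 130 and 117 kb, with a widest of 14286 bp, and the R2 peaks 10.8 and 10.7 kb. The region chr8:139701404-139710671, over and before its start, was among the best peaks of every list. Percentile ranks were 99.4 and 98.4 in the naïve lists. They were 99.7 and 99.6 for R1, and 96.3 and 92.3 for R2. The summits of all 6 lists lay within 87 bp. By relative level the naïve libraries stood at 2.56 and 2.17, R1 at 2.61 and 2.54, and R2 at 2.15 and 1.5. R1 thus overlapped the naïve libraries on that scale, and R2 was lower, the first R2 library by a small margin. The lead region, chr8:139653299-139654080 in intron 1, filled a gap of 1.05 kb between naïve peaks, with percentile ranks of 91.5 and 86.5 in R1, no peak in the first R2 library and 15.9 in the second. The region that brought the gene into the set, chr8:139428335-139429467, lies 171 kb from its gene body and outside the window. It was the best of the 242 regions of R1 alone, at percentile ranks of 98.2 and 97.9. Its middle lies 173163 bp from an annotated start of KCNK9, the nearest of any protein-coding gene. From the canonical start its best summit is 274589 bp away, beyond the far end of the gene.

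**Figure D3:**
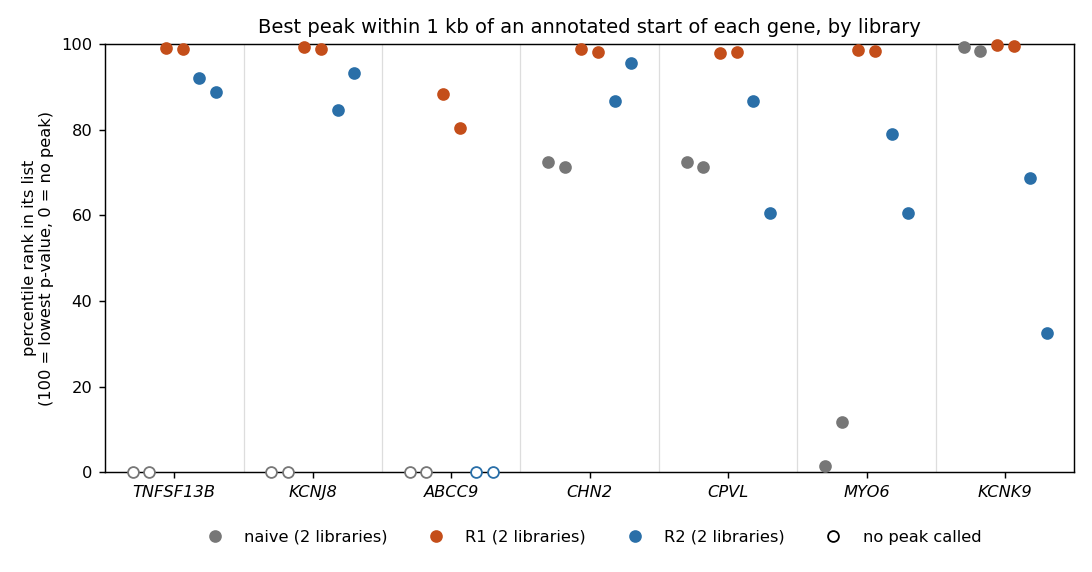
Best peak within 1 kb of any annotated start of each gene, by library. The y axis is the percentile rank (0, open circle: no peak), each point is 1 library. The naïve points are at 0 for TNFSF13B, KCNJ8 and ABCC9, near the bottom for MYO6, at 71.3 to 72.5 for CHN2 and CPVL, and at the top for KCNK9, where the R2 points are other, weaker peaks than those of the other lists. Points of CHN2 and of CPVL also come from different starts in different lists.

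Taking the best peak that reached within 1 kb of any start, 4 of the 7 genes had a promoter peak in each naïve list, all 7 in each R1 list and 6 in each R2 list. Genome-wide, the share of protein-coding genes with one was 71.4 to 74.9% for naïve lists, 85.5 to 87.0% for R1 and 65.5 to 66.5% for R2. All but ABCC9 had a promoter peak in every resistant list. Only TNFSF13B and KCNJ8 had it with no promoter peak in either naïve list at any start, a pattern shared by 0.409% of protein-coding genes. At CHN2, CPVL and KCNK9 the best promoter peaks are not the same peak in every list. For CHN2 it lies at the canonical start in the first naïve list and at the lead region in the first R1 and second R2 lists. In the second R1 and first R2 lists it lies at the start shared with CPVL, and in the second naïve list both starts had 71.3. For CPVL the peak of the first naïve list, at 72.5, is that of the canonical CHN2 start. The naïve and R1 peaks of KCNK9, with ranks of 98.4 to 99.7, are those of the wide region described above, and reach within 1 kb of a start. The R2 peaks with the same summit are narrower and do not reach within that distance, so that weaker peaks, at 68.7 and 32.5, stand for R2.

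Relatives and partners of the 7 genes were read in the same way. Of 24 such genes, 4 had a region in all 4 resistant and neither naïve list within 50 kb, where 5.08% of protein-coding genes did, namely the BAFF receptor genes TNFRSF13B and TNFRSF13C, the chimaerin CHN1 and RAC1, and 17 had a promoter peak in all 6 lists, beside 59.5% of protein-coding genes. No gene of the 24 had a promoter peak in every resistant list and in no naïve list. The other ATP-sensitive potassium channel genes, KCNJ11 and ABCC8, and the carboxypeptidase genes CTSA and SCPEP1 had a promoter peak in all 6. TNFRSF17, another BAFF receptor gene, had none in any list, and TNFSF13, the gene of the related cytokine APRIL, had one in the R1 lists alone. CHN1, RAC1 and RAC3 had promoter peaks in all 6 lists, and RAC2 in the naïve and R1 lists. Of the potassium channel genes related to KCNK9, KCNK1, KCNK2, KCNK3 and KCNK15 had them in all 6, and KCNK5 and KCNK6 in all but 1 R2 list. Of the cargo adaptors of myosin VI, OPTN, TAX1BP1, CALCOCO2, GIPC1 and TOM1 had promoter peaks in all 6 lists, and DAB2 in the R1 lists alone.

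**Figure D4:**
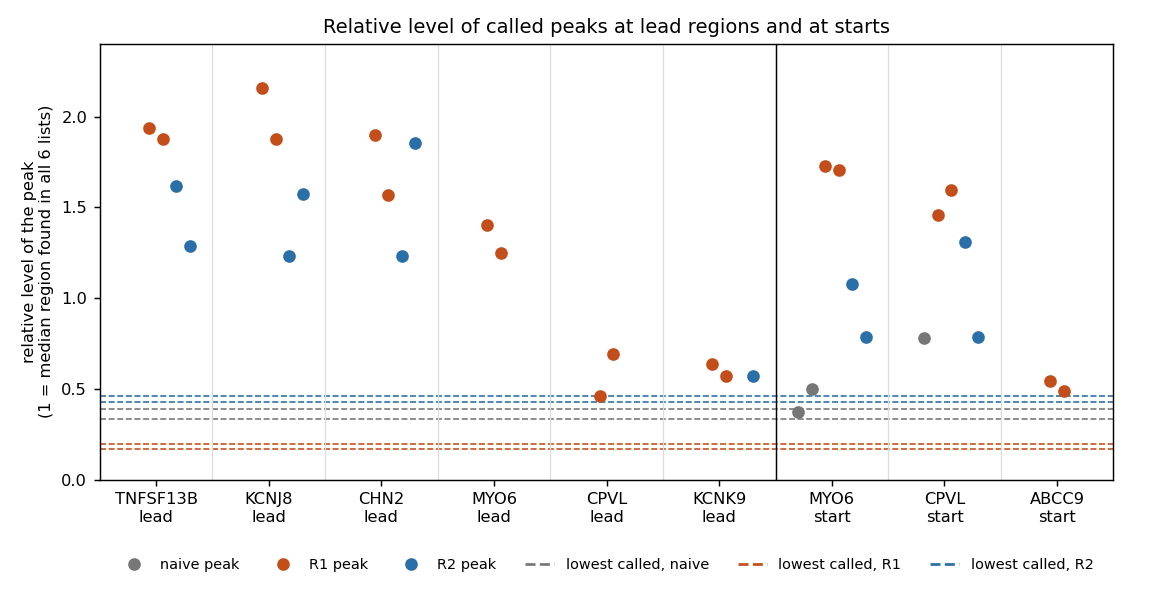
Relative level of each called peak at the lead regions and at 3 starts. The y axis is the number of tags per background tag divided by its median over 24147 regions found in all 6 lists, each point is 1 library, and dashed lines mark the lowest level called as a peak in each library. Peaks at TNFSF13B, KCNJ8, CHN2 and MYO6 lead regions lie far above the naïve and R2 lines, those at the CPVL and KCNK9 lead regions and the ABCC9 start close to them.

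Each peak was also set against the lowest relative level that a list called. The weakest peaks in the lists stood at 0.333 and 0.389 in naïve libraries. They stood at 0.168 and 0.194 for R1 and at 0.462 and 0.429 for R2. The TNFSF13B lead region had a level of 1.90 ± 0.0421 in R1 and 1.45 ± 0.233 in R2 (SD, n = 2 each). KCNJ8 had 2.02 ± 0.201 and 1.40 ± 0.241, and CHN2 1.73 ± 0.232 and 1.54 ± 0.443. These regions were chosen as strong in resistant lists and missing from naïve ones, so their levels describe the choice and give no support of their own. Rescaled to the first naïve library, the resistant peaks at these 3 regions would have had 33.2 to 58.3 tags, where 9 were enough for a call, and 22.2 to 38.9 in the second, where 7 were. These numbers rest on the same chosen values, and the cause of the missing naïve peaks was not tested.

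For MYO6 the level of the intronic region was 1.33 ± 0.107 in R1, above the lowest level called in naïve and R2 libraries. This region too was chosen as strong in R1 and missing from the other lists. Its start had 0.435 ± 0.0917 in naïve cells. It had 1.72 ± 0.0146 in R1, which is 3.95 times the naïve mean, and 0.931 ± 0.206 in R2, which is 2.14 times (SD, n = 2 each). The other peaks were close to the limit. CPVL's lead region had 0.458 and 0.694 in the R1 libraries, KCNK9's 0.636 and 0.569, and the ABCC9 start 0.542 and 0.486. The lowest levels called in the R2 libraries were 0.462 and 0.429, below all of these values except the 0.458 of CPVL. At the KCNK9 lead region the second R2 library did have a peak, at 0.571. The cause of the missing R2 peaks was not tested.

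**Figure D5:**
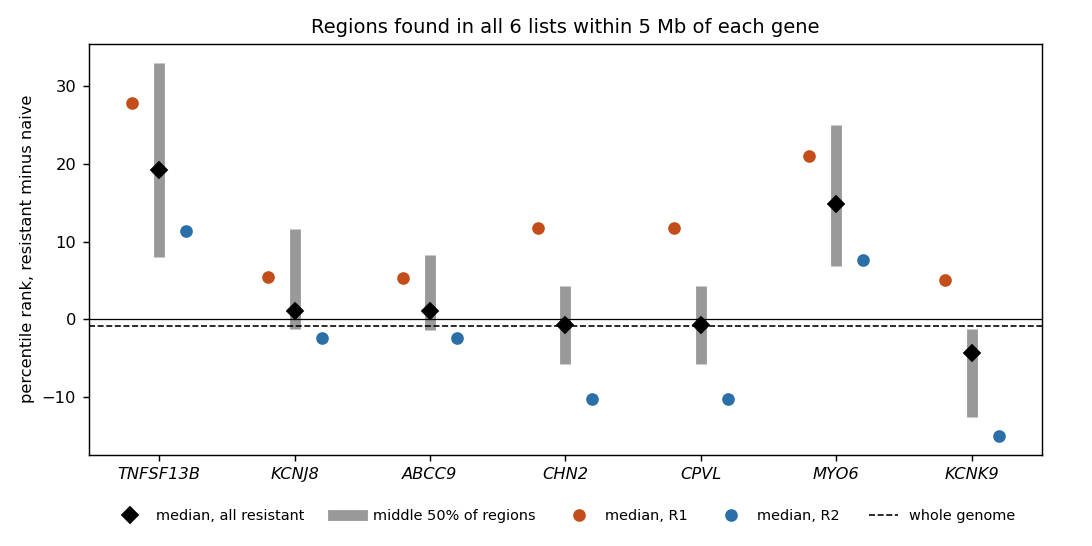
Change in percentile rank of regions found in all 6 lists within 5 Mb of each gene, its own window left out. The y axis is the mean over resistant libraries minus the mean over naïve libraries, diamonds are medians over regions, grey bars the middle 50%, coloured points the medians for R1 and R2, and the dashed line the median over the genome. Around TNFSF13B and MYO6 the medians are 19.2 and 14.9, and around the other genes they lie between -4.28 and 1.07.

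The surroundings of TNFSF13B and MYO6 moved with them. Over 24147 regions found in all 6 lists, the median difference in percentile rank between resistant and naïve libraries was -0.878. Of these regions, 41.0% were above 0. Within 5 Mb of TNFSF13B, its window left out, the median was 19.2 over 87 regions, and 95.4% of them were above 0. In R1 it was 27.9 and in R2 11.3, beside 6.98 and -8.31 over the genome. Within 5 Mb of MYO6 the median was 14.9 over 17 regions, with 94.1% above 0 and medians of 21.0 for R1 and 7.62 for R2. Within 1 Mb there were 3 such regions, with a median of 17.6, and 1 within 1 Mb of TNFSF13B, at 40.7. The part of these shifts in the peaks at both genes was not tested. Around KCNJ8 the median was 1.07 over 22 regions, around CHN2 and CPVL -0.791 over 122 regions, and around KCNK9 -4.28 over 294 regions, where R2 was at -15.0.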

How the data were processed

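The authors' peak lists for 6 ATAC-seq libraries were used, 2 each of naïve, R1 and R2 SK-N-AS cells. By the methods and processing notes, alignment was with BWA 0.7.12-r1039, duplicates were marked with Picard 1.65 and dropped with SAMtools 1.3.1, mitochondrial reads were left out, and ends were moved by +4 and -5 bp for the cut site. MACS2 2.2.7.1 then found peaks in each library alone, with a q cutoff of 0.01, extsize 200 and shift 100. The build is hg19 in the methods, and hg19 and hg38 in the notes. The deposited coordinates lie within every hg38 chromosome, and hg38 was used. Per the file columns, the authors deposited a fold (a ratio of tags to background) for every peak, the −log10 p-value and the −log10 q-value.

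Since a fold is whole tags plus 1 divided by the background rate plus 1, both could be recovered, to within 8.32e-05 of a whole tag. The relative level of a peak is its tags over the rate, divided by the median over 24147 regions found in all 6 lists. Peaks sharing at least 1 base were merged over the lists. The lead region of a gene has no naïve peak and the highest mean percentile rank over the resistant libraries. The best promoter region and the best region found in all 6 lists are also named. All 7 genes are named, with relatives and partners from lists written for them. Genes, lists, motifs and rules were chosen with earlier results of these data known. Merging and rate recovery were tested on simulated data. Depth sets which peaks could be called, and without read totals only relative depth is given. Alternatives were a stricter q, the top 50000 peaks, ranking by fold, other windows, a reciprocal overlap of 0.5 and leaving out libraries. Versions were Python 3.11.15, NumPy 2.4.6, pandas 2.3.3, SciPy 1.17.1 and, for the self-test, BEDTools 2.31.1.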

Additional observations from a re-analysis of the deposited data

Results flagged for a closer look

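At 2 regions in the windows of the genes, both R1 libraries were above and both R2 libraries below both naïve libraries by percentile rank. The genome leaned the same way. Over 24147 regions found in all 6 lists, the median difference from the naïve libraries was 6.98 for R1 and -8.31 for R2. How many of those regions had the same order was not counted. At the canonical start of CHN2 the mean percentile rank of the naïve libraries was 71.9, that of R1 95.9 and that of R2 54.2. At the region over and before the start of KCNK9 it was 98.9 for the naïve libraries, 99.6 for R1 and 94.3 for R2, with summits within 87 bp in all 6 lists. For the best peak within 1 kb of a start it was 50.6 in R2, but there the R2 peak of that summit is narrower and does not reach within that distance, so that another peak is compared. On the relative level neither order held. At the CHN2 start it was 0.722 for the naïve libraries, 1.04 for R1 and 0.777 for R2 in the mean, and at KCNK9 2.36, 2.57 and 1.83, where the second R1 library, at 2.54, was below the first naïve library, at 2.56. The difference between R1 and R2 was not tested, with 2 libraries each. R1 was the deepest and R2 the shallowest cell type, and percentile ranks come from lists of very different length.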

How the results depend on the processing

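Differences of the lead regions could not fall below 0 under any setting, because a lead region has no naïve peak by its definition, and are no sign of stability. Without both R1 libraries, a setting added after seeing the data, those of CPVL and MYO6 were 0. Ranking by fold gave the same ranks, since fold and p both follow from the tags of a peak. Counts moved. The regions in all 4 resistant and neither naïve list rose from 3 to 6 with the top 50000 peaks of each list, where MYO6 became the fifth gene with one. A reciprocal overlap of 0.5 with the best resistant peak gave 1 region and 1 gene. None of the 3 regions passed, since their R2 peaks overlapped the best peak by 0.284 to 0.447, and at TNFSF13B and CHN2 the second R1 peak did so by 0.433 and 0.440. The 1 region counted was chr13:108214167-108215855 in the TNFSF13B window, which has a peak in all 6 lists and where the naïve peaks overlapped by 0.231 and 0.196. Leaving out 1 library gave 3 to 6 regions and 4 to 6 genes. Without the first naïve library, the first R2 library or the second R2 library there were 6, 5 and 6 regions. Without both R2 libraries, also added later, 134 regions had a peak in both R1 lists and no naïve peak, and all 7 genes had such a region. Over the genome, regions in both R1 lists alone made up 30.0% of all regions. The share of protein-coding genes with such a region was not counted, so that the 7 genes are not set apart by it. Without both R1 libraries the same 4 genes and 3 regions remained. No paired analysis was possible because no result comes from a test, although the labels number the libraries alike in each cell type.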
